A study of Mus musculus with 6 samples.

Results

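The genes described here carry signals by which the endothelium sets the tone, the permeability and the sprouting of blood vessels: Nos3 of the nitric oxide pathway, Edn1, Ednra and Ednrb of the endothelin pathway, Apln and Aplnr of the apelin pathway, Adm, Calcrl and Ramp2 of the adrenomedullin pathway, and the sphingosine 1-phosphate (S1P) receptor gene S1pr1. These 10 genes were taken from the deposited table by symbol, out of 48440 genes, and all 10 were among the 15257 genes with enough reads to be tested. Nitric oxide made by endothelial cells relaxes the smooth muscle around them, whereas endothelin-1 contracts it. Apelin acts on sprouting endothelium, and adrenomedullin and S1P tighten the endothelial barrier.

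RNA was sequenced from the murine subcutaneous tissues entangled with BEC, cartilage engineered from rabbit bone marrow mesenchymal stem cells, 12 weeks after implantation into BALB/c nude mice, which lack a thymus and mature T cells. According to the methods the mice were male and 6–8 weeks old when bought. In 3 samples the BEC was wrapped in a PCL/collagen nanofibrous membrane without drug (0%-Axitinib group), and in 3 samples the membrane held 3% of axitinib by mass (3%-Axitinib group), an inhibitor of the VEGF receptor kinases. The labels call the samples of the first group untreated, and they were read as the 0%-Axitinib group because the deposited protocol names only membranes with 0% or 3% of the drug. A pair of constructs was carried by each mouse, and the mouse behind each sample is not given, so the p-values measure the spread between samples that may share an animal. The number of reads assigned to genes ranged from 9225518 to 18403795 per sample. Expression is given as CPM, the count relative to the TMM-scaled library. The detection limit, set at 3 reads, was 0.157 to 0.330 CPM depending on the sample and covers counting error only.

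Several libraries stood apart. The summed level of 17 skeletal muscle genes was 15054, 29.3 and 8157 CPM in 3%-Axitinib replicates 1, 2 and 3, and at most 158.8 CPM in the 0%-Axitinib samples. The summed level of 8 keratinocyte genes was 901 CPM in 0%-Axitinib replicate 2 and at most 8.36 CPM in every other sample. In 0%-Axitinib replicate 3, the B cell gene Cd79a was at 100.7 CPM, against at most 2.33 CPM elsewhere, and the erythroid gene Kel at 39.8 CPM, against at most 0.104 CPM elsewhere. Endothelial cells were represented in every sample, as all 18 genes of an endothelial marker list had at least 25 reads in each, and the adipocyte gene Adipoq, a marker of subcutaneous fat, lay between 0.456 and 22.4 CPM.

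Among the 10 genes, Apln, Aplnr and S1pr1 fell in the 3%-Axitinib group, and no gene rose. A gene was said to fall or rise when it met the study's criterion, which asks for at least 1.5-fold and for a p no larger than 0.05, in edgeR's test. The p was read as unadjusted, which the methods do not state. The criterion was met downward by 3 of the 10 genes (30%) and by 11.7% of all tested genes, and upward by none of the 10 and by 9.54% of all tested genes, which makes 21.2% in either direction. For the same 3 genes the groups did not overlap, a separation found downward in 16.6% of all tested genes. After Benjamini-Hochberg adjustment over all 15257 genes, edgeR's test left none of the 10 genes at an adjusted p of at most 0.05, although 3585 of all genes (23.5%) passed that threshold before adjustment and 1 gene (0.00655%) after it. DESeq2's Wald test gave an adjusted p of 0.00397 for Apln, 0.00605 for Aplnr and 0.00667 for S1pr1, and of more than 0.05 for the other 7, while 13.5% of the 14491 genes to which it gave an adjusted p were at or below 0.05.

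The median log2 fold change was -0.35 over the 10 genes and -0.034 over all tested genes. The 18 endothelial markers, measured in the same samples, had a median of -1.33, and 16 of them fell, the exceptions being Eng and Vwf. With single samples left out, between 12 and 16 fell. Their summed level was 1445, 997 and 1430 CPM in 0%-Axitinib replicates 1, 2 and 3 and 474, 588 and 686 CPM in 3%-Axitinib replicates 1, 2 and 3, with Eng as the most abundant gene of the list and no marker at 0 throughout. In bulk tissue, fewer endothelial cells and less RNA per endothelial cell cannot be told apart. Scaling by total counts in place of TMM gave 2448 lower and 989 higher genes, against 1785 and 1456 with TMM, and left the calls of the 10 genes as they were.

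**Figure D1:**
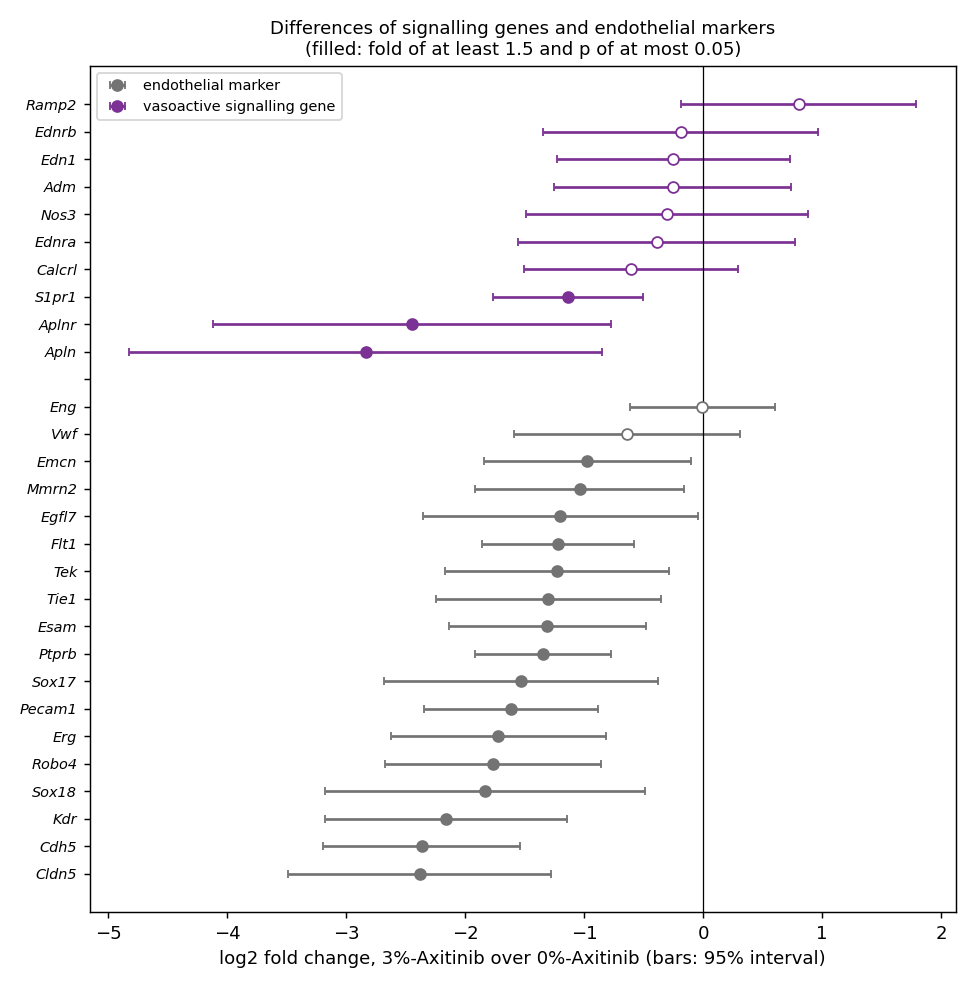
Log2 fold change of the 10 signalling genes (purple) and the 18 endothelial markers (grey), 3%-Axitinib over 0%-Axitinib, fitted with edgeR for 3 samples per group. Bars are 95% intervals and filled points met the criterion, as did 3 of the 10 signalling genes and 16 of the 18 markers.

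The apelin pair fell furthest. Apln, which encodes the apelin peptide and lies on chromosome X of GRCm38 from 48025146 to 48034853, was at 21.7, 16.9 and 119.8 CPM in 0%-Axitinib replicates 1, 2 and 3 and at 9.13, 9.48 and 3.71 CPM in 3%-Axitinib replicates 1, 2 and 3. One library, 0%-Axitinib replicate 3, stood far above the others, and all 3%-Axitinib samples were below all 0%-Axitinib samples. This made a log2 fold change of -2.84 with a standard error of 0.84 (adjusted p = 0.127 by edgeR). Without 0%-Axitinib replicate 3 it was -1.39 and still met the criterion. With a block for the replicate number it was -2.21 and did not meet the criterion.

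Aplnr, the receptor of apelin (chromosome 2, 85136225 to 85139923), was at 30.7, 20.8 and 48.5 CPM with 0%-Axitinib and at 1.10, 7.65 and 9.32 CPM with 3%-Axitinib. The groups did not overlap, and 3%-Axitinib replicate 1 was the lowest, with 10 reads. Its log2 fold change was -2.45 with a standard error of 0.71 (adjusted p = 0.123 by edgeR), and leaving out single samples gave -2.91 to -1.96. Apela, which encodes a further ligand of the receptor, had no read in any sample. Apelin is also made by adipocytes. Of 8 adipocyte genes, Fabp4 and Lep fell and none rose (7 fell when 3%-Axitinib replicate 1 was left out), with Fabp4 as the most abundant, and their summed level was 897, 922 and 1036 CPM with 0%-Axitinib and 803, 452 and 665 CPM with 3%-Axitinib. The part of this in the Apln difference was not tested.

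S1pr1 (chromosome 3, 115710433 to 115715072) encodes the S1P receptor that holds endothelial junctions closed and also guides lymphocytes out of lymphoid organs. It was at 71.8, 51.3 and 43.9 CPM with 0%-Axitinib and at 18.9, 28.2 and 28.7 CPM with 3%-Axitinib. All 3%-Axitinib samples were below all 0%-Axitinib samples, and no single library set the difference. Its log2 fold change was -1.14 with a standard error of 0.27 (adjusted p = 0.0986 by edgeR), and leaving out single samples gave -1.28 to -0.91. The value of -1.28 came without 0%-Axitinib replicate 3, the sample with B cell transcripts. In that setting the adjusted p of S1pr1 was 0.0424 by edgeR, and 1252 of all genes were at or below 0.05.

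Of the 47 other genes listed for these pathways, 37 were tested, 6 fell (16.2%) and 4 rose (10.8%). Among all tested genes, 11.7% fell and 9.54% rose. Of the 13 other S1P genes, 11 were tested, 3 fell (27.3%) and 1 rose (9.09%). Sphk1, a kinase that makes S1P, rose from 42.1, 46.1 and 50.8 CPM to 155.0, 90.2 and 88.8 CPM, a log2 fold change of 1.26 (standard error 0.27). Sgpp1, a phosphatase that degrades S1P, fell from 105.3, 119.8 and 118.2 CPM to 76.0, 62.4 and 54.2 CPM, a log2 fold change of -0.83 (standard error 0.20). For both genes the groups did not overlap, a separation found upward in 14.7% and downward in 16.6% of all tested genes. The receptor gene S1pr4, known from lymphoid cells, and the S1P transporter gene of blood cells, Mfsd2b, also met the criterion, but S1pr4 was at 68.2 CPM and Mfsd2b at 64.5 CPM in 0%-Axitinib replicate 3 and both were at most 3.56 CPM in every other sample. Without that replicate, neither met the criterion, with log2 fold changes of -1.05 and -0.28. Both also missed it when 3%-Axitinib replicate 1, 2 or 3 was left out, with -3.96, -4.35 and -4.62 for S1pr4 and -3.30, -3.27 and -3.04 for Mfsd2b. The most abundant gene of the group was the S1P lyase gene Sgpl1, with a log2 fold change of -0.86 that did not meet the criterion, and -1.16 without 0%-Axitinib replicate 3, which did. The transporter gene of endothelial cells, Spns2, had a log2 fold change of 0.49 and did not meet it.

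Of 12 lymphocyte genes, the 10 that were tested had log2 fold changes below 0, as did S1pr1 and S1pr4. Of the 10 tested, 8 fell (5 when 3%-Axitinib replicate 3 was left out), with a median log2 fold change of -3.83. Every listed gene but Il7r was highest in 0%-Axitinib replicate 3, and without that sample 7 fell and Cd79a went from -5.92 to -1.80. Their summed level was 183, 394 and 392 CPM with 0%-Axitinib and 126, 111 and 136 CPM with 3%-Axitinib. The most abundant gene was Il7r, with a mean of 148.6 CPM over all samples, and none of the 12 was at 0 in all samples. Within the 0%-Axitinib group, S1pr1 ran opposite to this list. The mean log2 CPM of the tested lymphocyte genes was 1.52, 2.30 and 4.39 in replicates 1, 2 and 3, and S1pr1 was at 71.8, 51.3 and 43.9 CPM. The part of lymphocytes in the S1pr1 difference was not tested.

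**Figure D2:**
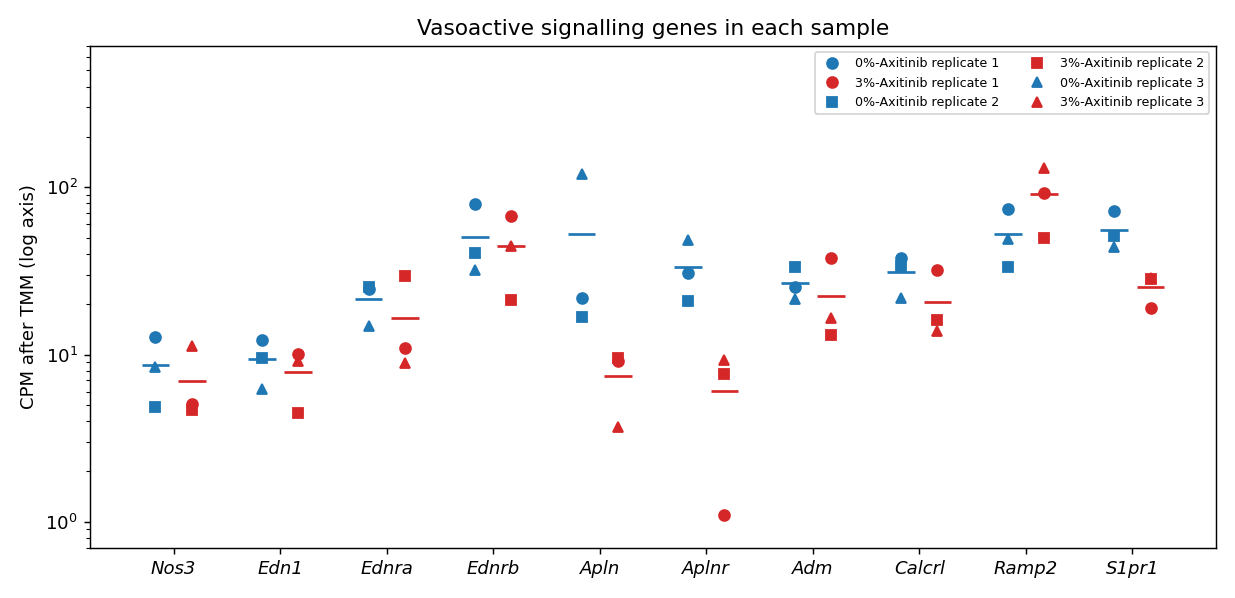
Expression of the 10 genes in each sample as CPM after TMM scaling (log axis). Points are samples, with the marker shape giving the replicate number, and lines are group means of 3 samples. Only Apln, Aplnr and S1pr1 have groups that do not overlap.

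Nos3 (chromosome 5, 24364810 to 24384474), the nitric oxide synthase of endothelial cells, was at 12.8, 4.84 and 8.36 CPM with 0%-Axitinib and at 5.06, 4.65 and 11.2 CPM with 3%-Axitinib. The groups overlapped. Nos3 had a log2 fold change of -0.31, and its 95% interval from -1.49 to 0.88 (edgeR) holds both 0 and the median of the endothelial markers. Nos3 overlaps Atg9b and an antisense transcript on the other strand, and the strand setting of the counting is not given in the sources used here. Atg9b was at most 3.50 CPM and the antisense transcript, Gm15587, at most 0.350 CPM.

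Of the 17 other nitric oxide genes, 16 were tested, 3 fell (18.75%) and 1 rose (6.25%). Among all tested genes, the shares were 11.7% and 9.54%. Of 3 listed subunit genes of the soluble guanylate cyclase, which senses nitric oxide in smooth muscle and pericytes, 2 fell and Gucy1a2, at most 0.679 CPM, was not tested. Gucy1b3 went from 10.2, 6.65 and 9.34 CPM to 1.10, 3.46 and 3.36 CPM, a log2 fold change of -1.71 (standard error 0.48). Gucy1a3 went from 18.0, 8.28 and 7.93 CPM to 2.86, 7.65 and 4.23 CPM, a log2 fold change of -1.21 (standard error 0.50). Gucy1a3 did not meet the criterion when 0%-Axitinib replicate 1 (-0.72) or 3%-Axitinib replicate 1 (-0.95) or 3 (-1.12) was left out. For Gch1, which makes the cofactor of nitric oxide synthases, the log2 fold change of -0.65 (standard error 0.24) met the criterion with all samples, but not without 0%-Axitinib replicate 2 or 3 or 3%-Axitinib replicate 1 or 2, where it lay between -0.58 and -0.55.

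The most abundant of the nitric oxide genes, the caveolin gene Cav1, had a log2 fold change of 0.15 that did not meet the criterion and was -0.095 without 0%-Axitinib replicate 3. None of 12 macrophage genes met the criterion. Their summed level was 11716, 12191 and 8944 CPM with 0%-Axitinib and 8474, 10872 and 16949 CPM with 3%-Axitinib, with Lyz2 as the most abundant gene.

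None of the endothelin genes among the 10 met the criterion. Edn1 (chromosome 13, 42301476 to 42307990), which encodes endothelin-1, was at 12.3, 9.56 and 6.25 CPM with 0%-Axitinib and at 10.0, 4.46 and 9.15 CPM with 3%-Axitinib. The groups overlapped, and the log2 fold change was -0.25 (95% interval from -1.23 to 0.73, edgeR). Ednrb (chromosome 14, 103814625 to 103844402), the B-type receptor that endothelial cells carry, was at 79.1, 40.6 and 31.9 CPM with 0%-Axitinib and at 67.5, 21.1 and 44.4 CPM with 3%-Axitinib, a log2 fold change of -0.19 (95% interval from -1.35 to 0.97). It ranged widely within both groups.

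Ednra (chromosome 8, 77663031 to 77724464), the A-type receptor of smooth muscle, pericytes and fibroblasts, was at 24.5, 25.4 and 14.8 CPM with 0%-Axitinib and at 10.9, 29.6 and 8.92 CPM with 3%-Axitinib. The 3%-Axitinib samples were split, with replicate 2 above every 0%-Axitinib sample and the other two below. Ednra had a log2 fold change of -0.39 (95% interval from -1.56 to 0.77, edgeR), and without 3%-Axitinib replicate 2 it was -1.13 and met the criterion. That replicate also had the highest summed level of 10 fibroblast genes, 71648 CPM against 10977 to 27695 CPM in the other samples, with Col1a1 as the most abundant gene. The summed level of a list of chondrocyte genes was highest there too, 1498 CPM against 168 to 634 CPM in the other samples. The part of either in the Ednra difference was not tested. Over all samples, Col1a1 and Thy1 rose and none of the 10 fibroblast genes fell. Col1a1 had a log2 fold change of 1.79 and Thy1 of 0.87, and without 3%-Axitinib replicate 2 neither met the criterion (0.83 and 0.52). Both also missed it without 0%-Axitinib replicate 2 (1.59 and 0.77), 0%-Axitinib replicate 3 (1.58 and 0.70) or 3%-Axitinib replicate 3 (2.04 and 1.02) and with total counts (1.63 and 0.73), and Thy1 without 3%-Axitinib replicate 1 (1.01).

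Of 15 genes of smooth muscle and pericytes, 6 fell and 1 rose. The genes that fell were Rgs5, Abcc9 and Kcnj8, known from pericytes, with log2 fold changes of -2.22, -1.89 and -1.22, the receptor gene Notch3 (-1.66), the adhesion gene Mcam (-1.73), which endothelial cells also express, and Mylk (-1.31). Pdgfrb and Cspg4, also known from pericytes, did not meet the criterion, at 0.093 and 0.91, nor did the actin gene Acta2 and the myosin gene Myh11 of smooth muscle, at 0.53 and 1.01. The one that rose was Des, the most abundant of the list, which skeletal muscle also expresses and which was at 1319 and 607 CPM in the 3%-Axitinib replicates with muscle transcripts and at most 29.3 CPM elsewhere. The list's summed level was 1188, 687 and 909 CPM with 0%-Axitinib and 2017, 924 and 1214 CPM with 3%-Axitinib.

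Ednrb is also known from the Schwann cell and melanocyte lineages. All 9 Schwann cell genes had log2 fold changes above 0, and 1 of the 9 rose. With single samples left out, 7 rose without 0%-Axitinib replicate 1, 3 without 0%-Axitinib replicate 3 and none without any other sample. The list's summed level was 1789, 707 and 352 CPM with 0%-Axitinib and 2186, 2248 and 1889 CPM with 3%-Axitinib, with Pmp22 as the most abundant gene. The melanocyte list had a summed level of 79.4, 112 and 43.3 CPM with 0%-Axitinib and 61.4, 46.8 and 58.1 CPM with 3%-Axitinib. Of 6 melanocyte genes, 3 were tested, Mlana fell, Mitf was the most abundant, and the defining genes Tyr, Tyrp1 and Dct were at most 0.261 CPM. The part of these cells in the Ednrb values was not tested.

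Of the 6 other endothelin genes, 3 were tested, none fell and 1 rose, where 11.7% of all tested genes fell and 9.54% rose. Ece1, the most abundant of them, and Ece2 encode enzymes that release endothelin from its precursor. Ece2 rose from 20.1, 17.8 and 19.8 CPM to 25.6, 45.5 and 28.7 CPM, a log2 fold change of 0.79 (standard error 0.26), and did not meet the criterion without 3%-Axitinib replicate 2 (0.50) or without 0%-Axitinib replicate 2 (0.73). Ece1 had a log2 fold change of 0.20 and did not meet it. The ligand genes Edn2 and Edn3 were at most 0.880 CPM in every sample and were not tested.

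None of the adrenomedullin genes among the 10 met the criterion. Adm (chromosome 7, 110627661 to 110629820), which encodes the peptide and is known to be induced by hypoxia, was at 25.4, 33.5 and 21.6 CPM with 0%-Axitinib and at 37.8, 13.1 and 16.6 CPM with 3%-Axitinib. The highest and the lowest value of all both came from the 3%-Axitinib group. Adm had a log2 fold change of -0.26 (95% interval from -1.25 to 0.74, edgeR), and without 3%-Axitinib replicate 1, which had the highest value, it was -0.85 and met the criterion. A list of 20 genes known to respond to hypoxia, without Adm, had a median log2 fold change of 0.48. With single samples left out, this median ranged from 0.26 to 0.62. In the list, Vegfa (1.10), Bnip3 (1.20), P4ha2 (0.84) and Ddit4 (1.59) rose and none fell. Bnip3 did not meet the criterion without 0%-Axitinib replicate 1 (1.29) or 3 (0.94) or 3%-Axitinib replicate 1 (0.65) or 3 (1.30), nor with total counts (1.08). Its summed level was 1986, 2430 and 1930 CPM with 0%-Axitinib and 3328, 2230 and 3017 CPM with 3%-Axitinib, with Ldha as the most abundant gene. Both Adm and the hypoxia list were highest in 3%-Axitinib replicate 1 and, within that group, lowest in replicate 2, and their relation was not tested.

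Calcrl (chromosome 2, 84330626 to 84425411), the receptor protein that binds adrenomedullin once it is paired with a RAMP, was at 37.8, 34.0 and 21.8 CPM with 0%-Axitinib and at 31.9, 16.0 and 13.8 CPM with 3%-Axitinib. Its groups overlapped through 3%-Axitinib replicate 1. Calcrl had a log2 fold change of -0.60 (95% interval from -1.50 to 0.29, edgeR), and without that replicate it was -1.06 and met the criterion.

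Ramp2 (chromosome 11, 101246028 to 101259546), the partner that makes Calcrl an adrenomedullin receptor, was the only one of the 10 genes with a log2 fold change above 0 when all samples were used. It was at 74.0, 33.5 and 49.3 CPM with 0%-Axitinib and at 93.0, 49.8 and 130.3 CPM with 3%-Axitinib, and the groups overlapped because 3%-Axitinib replicate 2 lay within the 0%-Axitinib range. Its log2 fold change of 0.80 (95% interval from -0.19 to 1.79, edgeR) did not meet the criterion with all samples. The criterion was met without 0%-Axitinib replicate 1 (1.14) and without 3%-Axitinib replicate 2 (1.10). The value is uncertain, because 1103 of the 3301 exonic bases that GENCODE M21 gives to Ramp2 are shared with Vps25 on the same strand. Vps25, which encodes a protein of endosomal sorting, was counted at only 0.116 to 0.652 CPM, and reads of the pair cannot be told apart in these counts.

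Of the 9 other adrenomedullin genes, 7 were tested, 1 rose (14.3%) and none fell, where 9.54% of all tested genes rose and 11.7% fell. Adm2, which encodes a related peptide, rose from 0.731, 0.816 and 0.869 CPM to 4.40, 3.19 and 2.95 CPM, which made a log2 fold change of 2.11 with a standard error of 0.38 (adjusted p = 0.0965 by edgeR). The groups did not overlap, a separation found upward in 14.7% of all tested genes, and the gene was lowly expressed. Ramp1, which makes Calcrl a receptor for calcitonin gene-related peptide, was at 7.99, 5.89 and 53.3 CPM with 0%-Axitinib and at 10.1, 16.6 and 15.7 CPM with 3%-Axitinib. Its log2 fold change of -0.66 rested on 0%-Axitinib replicate 3, and without that sample it was 1.02 and met the criterion in the upward direction. Ramp3 (-1.32) and the scavenging receptor gene Ackr3 (1.10) did not meet the criterion with all samples. Ramp3 met it without 3%-Axitinib replicate 1 (-1.89), and Ackr3 without 0%-Axitinib replicate 1 (1.73) or 3%-Axitinib replicate 2 (1.43). The most abundant gene, Pam, which amidates peptides, had a log2 fold change of 0.0037.

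Levels were compared between genes per kilobase of the main transcript in GENCODE M21. In the 0%-Axitinib group, Ramp2 was at 44.3 ± 17.3 CPM per kilobase (SD, n = 3), followed by Adm at 19.3 ± 4.36, S1pr1 at 18.3 ± 4.74, Apln at 16.8 ± 18.5, Ednrb at 12.3 ± 6.12, Aplnr at 9.01 ± 3.80, Calcrl at 6.40 ± 1.71, Ednra at 5.95 ± 1.63, Edn1 at 4.38 ± 1.41 and Nos3 at 2.10 ± 0.964. Only Ramp2 and Adm were neighbours in this order whose values did not overlap within their SDs, and over all annotated exons Ramp2 was at 15.8 ± 6.18 and no longer stood apart. In the 3%-Axitinib group, Ramp2 at 77.3 ± 34.2 and Adm at 16.2 ± 9.62 CPM per kilobase were again first, and Apln at 2.36 ± 1.03 and Aplnr at 1.63 ± 1.18 had moved to the lower end, beside Nos3 at 1.69 ± 0.893.

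Ratios between ligand and receptor, and between receptors, were compared within samples as differences of log2 CPM, for 6 pairs of genes. Ramp2 exceeded Calcrl by 0.96, -0.022 and 1.17 with 0%-Axitinib and by 1.54, 1.63 and 3.22 with 3%-Axitinib, all of which were higher. The difference between the groups was 1.43 (p = 0.1 in an exact two-sided permutation, which is the smallest that 3 samples against 3 allow, and 0.6 after adjustment over the 6 pairs). With single samples left out, this difference ranged from 0.88 to 1.72. It carries the uncertainty of the Ramp2 counts. For the other 5 pairs, the groups overlapped. Edn1 kept nearly the same ratio to Ednrb in all samples, between -2.74 and -2.07, and the groups differed by -0.045 in this ratio. Ednra exceeded Ednrb in 1 sample, 3%-Axitinib replicate 2, by 0.48, and lay below it by between -2.62 and -0.67 in the others.

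Each gene was also set against the mean log2 CPM of the 18 endothelial markers in the same sample. The share of all genes whose groups would not overlap by this measure was not computed. The marker mean was itself lower with 3%-Axitinib, at 3.90, 4.40 and 4.72 against 5.92, 5.37 and 5.97 with 0%-Axitinib. This made a difference of -1.41 with groups that did not overlap, so a gene that kept its level would be higher by as much relative to this mean. Relative to this mean, Ramp2 was higher by 2.18 and Nos3 by 1.10 in the 3%-Axitinib group, and for Aplnr the difference was -1.40, each with groups that did not overlap (p = 0.1 in an exact two-sided permutation, again the smallest possible, and 0.333 after adjustment over the 10 genes). Nos3 lay at -2.23, -3.06 and -2.88 with 0%-Axitinib and at -1.52, -2.14 and -1.21 with 3%-Axitinib. Edn1, Ednrb and Adm had differences of 1.14, 1.18 and 1.03 with overlapping groups, which were 0.71, 0.58 and 0.36 without 3%-Axitinib replicate 1. S1pr1 differed by 0.28 and was within 0.51 of the marker mean in every sample. Apln differed by -0.93, with 0%-Axitinib replicate 3 at 0.94 and all other samples between -2.78 and -0.69, and by -0.16 without that replicate. The Aplnr difference was -0.68 without 3%-Axitinib replicate 1, which lay at -3.60 against -1.44 and -1.48 in the other two. These sizes depend on the reference. Against Pecam1 and Cdh5 alone the differences were -0.79 for Aplnr, with overlapping groups, -0.32 for Apln and 0.90 for S1pr1. Those of Nos3, Edn1, Ednrb, Adm and Ramp2 were then 1.71, 1.75, 1.79, 1.64 and 2.79. This comparison does not show in which cells a transcript was made, since most of the 10 genes are also expressed outside the endothelium.

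**Figure D3:**
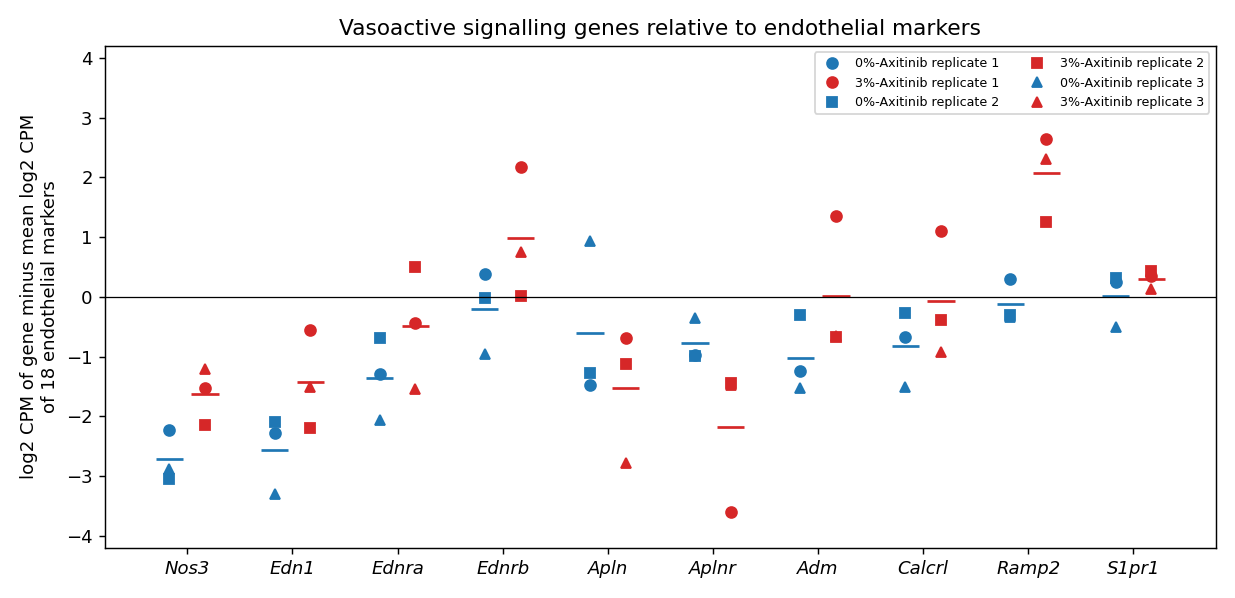
Log2 CPM of each of the 10 genes minus the mean log2 CPM of 18 endothelial markers in the same sample. Points are samples, marker shapes give the replicate number, lines are means of 3 samples, and the groups do not overlap for Nos3, Aplnr and Ramp2. The marker mean itself had groups that did not overlap, with a difference of -1.41 (3%-Axitinib minus 0%-Axitinib).

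For each of the 10 genes, the 1 other gene with the most similar profile over the 6 samples was found among genes with a mean of at least 10 CPM, by the root mean square difference of centred log2 CPM. For Ednrb this was Heg1, an endothelial membrane protein gene, with a difference of 0.12, and for S1pr1 it was Rasgrp3, also 0.12. For Aplnr it was Gpihbp1, which anchors lipoprotein lipase on capillaries, with a difference of 0.49. For Apln it was the chemokine receptor gene Ccr2, with 0.29, which shared the high value in 0%-Axitinib replicate 3 (235 CPM, against 14.6 to 54.9 CPM in the other samples). The others were Cd86 for Nos3 (0.23), Sik1 for Edn1 (0.16), Polk for Ednra (0.17), Arrdc3 for Adm (0.16), Tmed5 for Calcrl (0.21) and Pcolce2 for Ramp2 (0.21).

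Promoter sequences from RefSeq (GRCm38.p6) were matched for 6 of the 10 genes, which were Edn1, Ednra, Ednrb, Apln, Adm and Calcrl. Apln and Adm are both known as targets of hypoxia-inducible factors, and the 250 bases before each start, 5′ to 3′, are shown for these ligand genes, chosen after their values were seen. The letters ACGTG and GCGTG, the core of the hypoxia-inducible factor motif, were searched on both strands and are in capitals where found (on the opposite strand GCGTG reads CACGC). Adm held GCGTG 2 times and ACGTG 0 times, on chr7:110627407-110627656 (plus strand), and Apln held neither, on chrX:48034854-48035103 (minus strand). Of 32851 promoter windows of the same length, 16.6% held ACGTG, 28.2% held GCGTG and 38.6% held either. Ednrb held GCGTG 1 time, and Edn1, Ednra and Calcrl held neither. A match is a description of the letters, not a binding site.
Adm: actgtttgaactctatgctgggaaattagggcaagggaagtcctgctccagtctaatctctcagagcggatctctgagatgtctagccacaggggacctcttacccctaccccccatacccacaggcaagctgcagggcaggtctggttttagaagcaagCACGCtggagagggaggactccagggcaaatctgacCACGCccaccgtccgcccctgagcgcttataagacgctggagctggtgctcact
Apln: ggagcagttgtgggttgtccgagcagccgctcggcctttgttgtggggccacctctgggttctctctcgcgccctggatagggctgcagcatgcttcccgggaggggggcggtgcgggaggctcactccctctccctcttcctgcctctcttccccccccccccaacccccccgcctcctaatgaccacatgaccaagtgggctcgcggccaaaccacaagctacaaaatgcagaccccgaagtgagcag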

How the data were processed

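Poly(A) RNA of 6 samples was sequenced. The authors filtered the reads with fastp, mapped them with STAR 2.5.2b to mm10 (GRCm38) and deposited read counts per gene without normalization. The annotation release and strand setting are not given in the sources used here. The 4 lines of reads assigned to no gene, between 19.1% and 57.8% of a library, were left out. Counts were filtered with filterByExpr (minimum count 10, minimum total 15), scaled with TMM and tested with edgeR 4.0.16 (R 4.3.3) for a quasi-likelihood difference between the groups, and p-values were adjusted by Benjamini-Hochberg over all tested genes. Log2 CPM had a prior count of 2. Single ratios were tested by exact two-sided permutation over samples. Lists of markers and pathway genes were written from general knowledge. The 10 genes and the lists were chosen with earlier results of these data known. The text names the 10 genes, pathway genes that met the criterion (some are not reported here), the most abundant gene of each list, genes at 0 and the gene of most similar profile, and other genes named were chosen after their values were seen. The promoters shown and the motif GCGTG were also chosen then. Positions and lengths are from GENCODE M21 (GRCm38), and the release used for counting may differ. Alternatives were DESeq2 1.42.0, limma-voom (limma 3.58.1), other scalings, filters and prior counts, other endothelial references, a replicate block and each sample left out. The tests were tried on simulated data. Figures were drawn with matplotlib 3.10.9.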

Additional observations from a re-analysis of the deposited data

Results flagged for a closer look

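Reads that could not be mapped to the mouse genome, which enter no comparison above, made up 31.5% ± 15.9 (SD, n = 3) of the 3%-Axitinib libraries and 8.08% ± 5.99 (SD, n = 3) of the 0%-Axitinib libraries. They drew attention because they are a signal outside the gene counts that was above the level of the control samples. The share was 48.4% in 3%-Axitinib replicate 1, the sample with the fewest reads on genes and with the lowest value of Aplnr and S1pr1. The origin of these reads was not tested.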

How the results depend on the processing

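For each of the 10 genes, 14 alternatives were run, which made 140 log2 fold changes. Of these, 128 kept their direction and their side of the criterion, 5 turned, 1 lost a call and 6 gained one. Apln, Aplnr and S1pr1 met the criterion throughout, except Apln with a replicate block. The deviations of same-numbered samples of the groups had correlations of 0.18, -0.12 and -0.17, and those of differently numbered samples lay between -0.22 and 0.21. With 3 samples per group, these values cannot show whether the numbers pair the samples. With the replicate block, Apln was at -2.21, 1 of the 10 genes was called higher (Ramp2, 0.77), Eng was at 0.0091, Ramp1 at 0.034, and 1354 and 1249 of all genes were called lower and higher.

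At an adjusted p threshold of 0.05, edgeR called 1 gene, DESeq2 1961, limma-voom 2, edgeR without a filter 15 and with the block 2, and 0 to 1252 with single samples left out, where 1308 to 2148 genes (8.24% to 13.7%) were called lower and 1055 to 2274 (6.65% to 14.5%) higher by the criterion. Of the 10 genes, leaving out single samples gave 3 to 5 lower and 0 to 1 higher, and of the pathway genes 3 to 6 lower and 3 to 8 higher. Total counts moved the median of all genes from -0.034 to -0.16, and with it Pam to -0.13, Pdgfrb to -0.048 and the medians of the lymphatic list to -0.062 and of the smooth muscle list to -0.048. Pam was at -0.0309 without a filter and at -0.00630 with at least 10 counts in every sample. With limma-voom, Eng was at 0.0050 and Ramp1 at 0.048, and S1pr4 (-2.68), Mfsd2b (-1.77) and Cd79a (-3.61) missed the criterion. With the block, Gucy1a3 (-1.19), Ece2 (0.74), Mfsd2b (-1.54), Cd79a (-3.86), Col1a1 (1.57) and Thy1 (0.87) missed it, and Ackr3 (1.11), Myh11 (0.89) and Pcolce2 (0.89) met it. Sgpl1 met it with total counts (-0.99) and DESeq2 (-0.86), Ackr3 with DESeq2 (1.10), and Acta1 with DESeq2 (7.35) and without a filter (7.29).

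With single samples left out, the log2 fold change ranged from -0.84 to 0.086 for Nos3, -0.47 to 0.029 for Edn1, -0.63 to 0.29 for Ednrb, -0.85 to 0.016 for Adm, -0.095 to 0.56 for Cav1, -0.23 to 0.26 for Pam, -1.12 to 1.02 for Ramp1, -0.16 to 0.19 for Eng, -0.22 to 0.45 for Lyz2, -0.12 to 0.29 for Pdgfrb, -1.25 to 0.089 for Il7r, -0.051 to 1.42 for Comp, -0.47 to 0.23 for Sik1, -0.48 to 0.40 for Heg1 and -0.54 to 0.055 for Arrdc3. The difference between groups ranged from -1.31 to 0.25 for Ednra minus Ednrb, -0.20 to 0.12 for Edn1 minus Ednrb and -0.67 to 1.44 for Apln minus Aplnr. The cause of these changes was not tested.

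Depth limits Aplnr in 3%-Axitinib replicate 1 (10 reads) and the genes listed below 1 CPM. Alternatives for the endothelial and hypoxia lists with single samples left out were chosen after seeing the data.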

Other observations

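Chondrocyte genes, of which only a summed level is given above, were also measured on the mouse genome. Of 11 genes listed, 9 were tested, and Col2a1, Acan, Sox9, Col9a1, Hapln1 and Chad met the criterion upward and none downward. Their summed level was 363, 218 and 168 CPM with 0%-Axitinib and 349, 1498 and 634 CPM with 3%-Axitinib, with Comp as the most abundant gene. The BEC were made from rabbit cells, and how far rabbit reads were counted on mouse genes was not tested. Of 7 lymphatic endothelial genes, 4 were tested, only Flt4 met the criterion (-1.83), and the most abundant was Pdpn (0.72). Without 0%-Axitinib replicate 1, the criterion was met downward by 2 lymphatic genes and upward by 1. Of 8 keratinocyte genes, 3 were tested, of which Krt10 and Lor met the criterion downward through 0%-Axitinib replicate 2 and neither did so without that sample or without any one of the 3%-Axitinib samples. Krt1 was the most abundant. Of the 17 skeletal muscle genes, 16 were tested and 14 met the criterion upward, with Acta1 as the most abundant.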
